A study of Mus musculus with 28 samples.

Results

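The genes described here encode the core of TGF-beta, BMP and activin signalling: ligands, the proteins that bind ligands outside the cell, receptors, Smad proteins and the Id target genes. They are 46 of the 45706 gene rows that the tables of expression values share, listed by gene symbol for their place in the pathway and matched by Ensembl identifier. These and the other gene lists used below were chosen with earlier results of these data known. Their counts beside shares of all genes are therefore descriptive. The data come from 28 RNA-seq libraries of mIMCD-3 cells, a mouse epithelial line derived from the inner medullary collecting duct of an animal transgenic for the early region of the virus SV40. Polyclonal WT is the line as purchased, WT5 is a monoclonal line grown from 1 sorted cell of it, and subclones 1 to 5 were each grown from 1 sorted cell of WT5, with 4 libraries per group. All groups were unedited wild-type cells without treatment, kept in the same serum-containing medium, and RNA was taken from confluent cultures.

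Several features of the design limit every comparison below. Each monoclonal group is 1 clone, so its libraries describe that clone. Polyclonal WT was sequenced with single-end reads of 50 bases and WT5 with paired-end reads of 150 bases, so cell line and sequencing cannot be told apart. The subclones are in a table of their own, so what all of them show against WT5 and an effect of how each table was made cannot be told apart. The study calls the 4 libraries of a group biological replicates in its methods and technical replicates in a legend, so the p-values measure only the spread between libraries, which may be technical. In bulk RNA, fewer cells with a transcript and less transcript per cell cannot be told apart either. Where libraries of different groups are said not to overlap, the share of all genes that do the same was not computed. Such statements describe the named gene only.

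In every group the libraries carried epithelial transcripts, with summed levels of 12 collecting duct and epithelial markers between 1717.74 and 3119.52 TPM. TPM, the unit of the tables, divides reads by transcript length and scales each library to the same sum. Aqp2, the water channel that defines principal cells of the collecting duct, was listed at 0 in every library. The other markers of this kind went both ways: the vasopressin receptor gene Avpr2 averaged 10.6 TPM in polyclonal WT but 0.06 TPM in WT5, Gata3 4.08 and 0.04 TPM and Cdh1 145 and 97.6 TPM, whereas the keratin genes Krt8, Krt18 and Krt19 averaged 360, 637 and 178 TPM in polyclonal WT but 1005, 957 and 344 TPM in WT5, and Epcam 507 and 603 TPM. Of fibroblast and endothelial markers, 0 of 6 and 0 of 4 reached a mean of 1 TPM in any group. The 4 leukocyte markers summed to between 12.2 and 13.8 TPM in polyclonal WT and between 28.4 and 55.6 TPM in the other groups. Nearly all of that sum was Csf1r (10.6 TPM in polyclonal WT against 38.8 TPM in WT5, as means), while Ptprc had means of at most 0.138 TPM and Cd3e was listed at 0. The part of other cells in the results was not tested.

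Ligands of this family are secreted as dimers and bring together type I and type II receptors, which are kinases. The type I receptor then phosphorylates receptor-regulated Smad proteins: Smad2 and Smad3 after TGF-beta or activin, and Smad1, Smad5 and Smad9 after BMP. These join Smad4 and act on target genes in the nucleus, among which Id1, Id2, Id3 and Id4, inhibitors of DNA binding, are known BMP targets. Secreted antagonists trap ligands, latent TGF-beta binding proteins store TGF-beta in the matrix, and Smad6 and Smad7 restrain the pathway from inside. In kidney epithelium the family is known for its roles in branching of the collecting system, in epithelial plasticity and in fibrosis.

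Of the 46 genes, 25 had a mean of at least 10 TPM over all libraries and 12 had a mean under 1 TPM. Bmp5, Bmpr1b and Grem1 were listed at 0 in at least 27 of the 28 libraries. The cells thus carried transcripts for type I receptors (Tgfbr1, Acvr1, Acvr1b, Bmpr1a), type II receptors (Tgfbr2, Acvr2a, Acvr2b, Bmpr2) and the Smads of both branches except Smad9, which stayed between 0.03 and 0.2 TPM.

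WT5 was compared with polyclonal WT to ask how far a line grown from a single cell departs from its parent population. By a 2-fold rule (limma on log2(TPM), Benjamini-Hochberg adjusted p below 0.01 and a log2 difference above 1 in size), 17 of the 36 members that could be tested differed, 13 higher and 4 lower in WT5. Over all 13723 genes tested, the same rule called 25.5% (17.0% higher and 8.55% lower). With 1 TPM added before taking logs, Ltbp1 and Acvr2b no longer passed. The median log2 difference was 0.61 over the members and 0.24 over all genes, and single differences are to be read against that shift. The median size of the difference was 1.18 over the members and 0.57 over all genes. A stricter rule, with log2(TPM) turned into z-scores within each library and a difference above 1 required, asks for about 8.56-fold here and called 3 members (Bmp3, Bmp6 and Inhba), 3 higher and 0 lower. That rule called 5.43% of all genes, 2.31% higher and 3.12% lower. Its count of members was 6 (4 higher, 2 lower) among genes with a mean of at least 1 TPM, and 5 (3 higher, 2 lower) when TPM was rescaled without predicted, pseudogene and mitochondrial genes, with Tgfb3 and Ltbp4 added in both. It no longer called Bmp3 and Inhba with 1 TPM added before taking logs (z-score differences 0.94 and 0.79), nor Bmp3 with 0.1 TPM added and every gene above 0 somewhere kept (0.91). The other 10 members were listed at 0 in at least 1 of the 8 libraries. When every gene above 0 somewhere was kept and 0.1 TPM was added before taking logs, which understates differences of low genes, 21 members passed the 2-fold rule, against 24.5% of all genes, and 17 of them were higher in WT5. All members but Bmp5 and Grem1, listed at 0 in all 8 libraries, were tested this way. The share of all genes higher under this setting was not computed. Bmp2 and Nog, listed at 0 in all polyclonal WT libraries, entered it only through WT5 and could only come out higher. The count of 17 was thus in part fixed in advance.

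**Figure D1:**
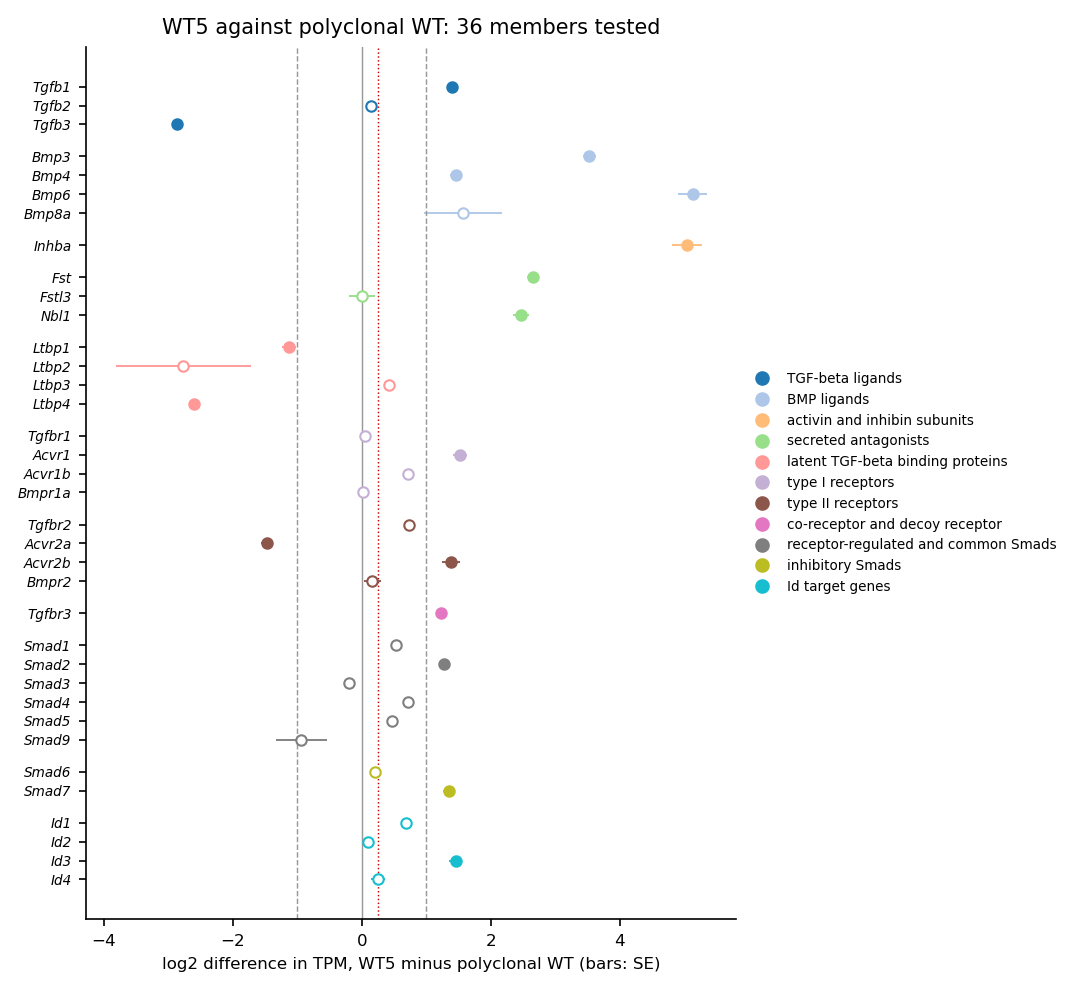
Log2 difference in TPM between WT5 and polyclonal WT (x axis, WT5 minus polyclonal WT) for the 36 members tested, grouped by role, as point and standard error from limma. Filled points passed the 2-fold rule, dashed lines mark log2 differences of -1 and 1, and the dotted line marks the median of all genes at 0.24. Bmp6 at 5.13 and Inhba at 5.04 lie farthest to the right, and Tgfb3 at -2.86 farthest to the left.

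Among the TGF-beta ligands, the leading transcript differed between the lines. In polyclonal WT, Tgfb3 measured 46.69, 50.57, 51.7 and 49.98 TPM, and in WT5 it measured 6.86, 6.47, 7.37 and 6.68 TPM. The groups did not overlap, and the log2 difference was -2.86 ± 0.06 (SE, n = 4 per group; adjusted p = 1.04e-08, limma), or 7.27-fold lower in WT5. Tgfb1, the most widely expressed isoform, measured 21.95, 24.97, 26.93 and 27.12 TPM in polyclonal WT against 62.25, 68.14, 68.98 and 67 TPM in WT5, which was 2.64-fold higher (adjusted p = 1.59e-06, limma). Tgfb2 had means of 2.05 and 2.25 TPM (adjusted p = 0.0506). Summed over the 3 genes, the level was 77.0 ± 4.52 TPM in polyclonal WT against 75.7 ± 3.13 TPM in WT5 (SD, n = 4). Within that sum, the share of Tgfb1 was 32.7 ± 1.35% in polyclonal WT and 88.0 ± 0.639% in WT5, and that of Tgfb3 was 64.6 ± 1.37% and 9.05 ± 0.541%. In the 5 subclones the mean share of Tgfb1 lay between 89.0% and 91.5%. Of the stretches of 50 bases in the longest Tgfb3 transcript, 8.79% also occur in transcripts of other annotated genes, so part of its reads could be split between genes.

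**Figure D2:**
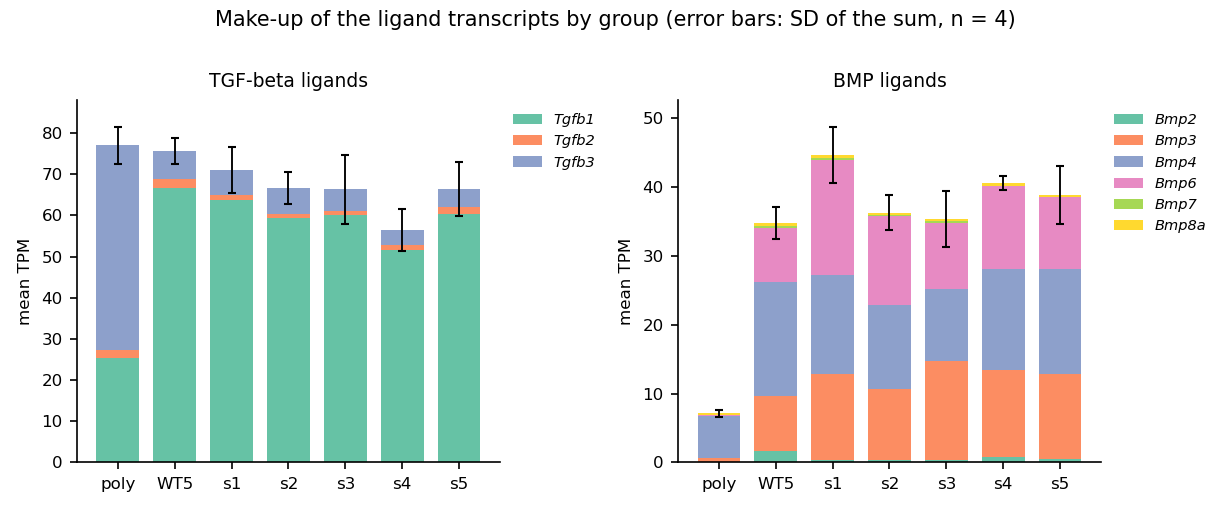
Mean TPM (y axis) of the TGF-beta ligand genes (left) and BMP ligand genes (right), stacked by gene, in polyclonal WT (poly), WT5 and subclones 1 to 5 (s1 to s5). Error bars are the SD of the summed value over 4 libraries. The TGF-beta sum of 77.0 TPM in polyclonal WT is mostly Tgfb3 and that of 75.7 TPM in WT5 mostly Tgfb1, while the BMP sum is 7.12 TPM in polyclonal WT against 34.8 TPM in WT5.

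Of the 4 BMP ligand genes that could be tested, 3 were higher in WT5 by the 2-fold rule, beside 17.0% of all genes. The sum over all BMP ligand genes was 7.12 ± 0.550 TPM in polyclonal WT against 34.8 TPM in WT5 (n = 4 each). Bmp6, known as a regulator of iron balance and of bone formation, measured 0.16, 0.22, 0.36 and 0.21 TPM in polyclonal WT against 7.54, 8.2, 8.47 and 7.6 TPM in WT5. That is a log2 difference of 5.13 ± 0.22 (SE; adjusted p = 4.93e-07, limma) and a z-score difference of 1.57. Bmp3, an atypical BMP that opposes the others in bone, measured 0.58, 0.79, 0.74 and 0.67 TPM against 7.86, 8.24, 8.39 and 7.38 TPM, a log2 difference of 3.53 ± 0.10 (SE; adjusted p = 5.89e-08, limma). Bmp4, which acts in branching of the ureteric bud, rose from 5.98 to 16.5 TPM, or 2.75-fold (adjusted p = 3.69e-06). No library of these 3 genes in WT5 overlapped one of polyclonal WT, though how common that was over all genes was not computed. Bmp4 in polyclonal WT made up 83.9 ± 3.78% of the BMP ligand sum, and in WT5 it made up 47.2 ± 1.21%, beside 22.9% each for Bmp6 and Bmp3.

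Bmp2, an inducer of bone and cartilage, was listed at 0 in all 4 polyclonal WT libraries and measured 1.82, 1.49, 1.89 and 1.66 TPM in WT5. On the scale with the pseudocount the difference was 4.18 (adjusted p = 7.6e-09, limma), and no fold is given against 0. The gene entered that test only through WT5, and its polyclonal WT values have no spread. The p-value therefore holds no variation between polyclonal WT libraries and is not read as support. Bmp7, a survival factor for nephron progenitors, measured 0.35, 0.23, 0.22 and 0.1 TPM in WT5 and was above 0 in 1 polyclonal WT library, at 0.03 TPM (adjusted p = 0.000783 with the pseudocount). Bmp8a lay between 0.05 and 0.62 TPM with overlap of the groups (adjusted p = 0.0441), and 8.91% of its stretches of 50 bases occur elsewhere, most of them in Bmp8b.

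Both activin subunit genes were below 0.2 TPM in every polyclonal WT library. Activin A is a dimer of the product of Inhba, activin B of that of Inhbb, and Inha encodes the subunit that turns either into an inhibin. Inhbb measured 0.06, 0.02, 0 and 0.03 TPM in polyclonal WT against 17.15, 17.26, 17.61 and 18.08 TPM in WT5. Because 1 library was listed at 0, the gene was tested on the scale with the pseudocount, where the log2 difference was 7.13 ± 0.13 (SE; adjusted p = 8.41e-09, limma). Inhba measured 0.1, 0.1, 0.09 and 0.17 TPM in polyclonal WT against 3.61, 2.85, 3.79 and 4.61 TPM in WT5, a log2 difference of 5.04 ± 0.23 (SE; adjusted p = 5.85e-07, limma). In polyclonal WT, Inhbb was thus near 0.01 TPM, the lowest value above 0 in the tables, and the libraries of the groups did not overlap for either gene. Inha had means of 0.025 and 0.185 TPM and did not pass (adjusted p = 0.0434 with the pseudocount).

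The bases before the start site of both activin genes are given for comparison, together with those of Id4, a target gene that varied among the subclones. They are RefSeq windows of 250 bases on GRCm38.p6, from 5′ to 3′ on the strand of the gene, and hold 0 bases of exons annotated in GENCODE M21. Capitals mark GGCGCC, a GC-rich element that Smad1 and Smad5 are known to bind.
Inhba, chr13:16011601-16011850, plus strand: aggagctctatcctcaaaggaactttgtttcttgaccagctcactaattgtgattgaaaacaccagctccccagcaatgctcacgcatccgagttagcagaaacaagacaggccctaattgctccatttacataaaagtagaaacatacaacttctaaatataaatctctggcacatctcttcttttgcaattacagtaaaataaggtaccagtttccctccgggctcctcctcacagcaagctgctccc
Inhbb, chr1:119422249-119422498, minus strand: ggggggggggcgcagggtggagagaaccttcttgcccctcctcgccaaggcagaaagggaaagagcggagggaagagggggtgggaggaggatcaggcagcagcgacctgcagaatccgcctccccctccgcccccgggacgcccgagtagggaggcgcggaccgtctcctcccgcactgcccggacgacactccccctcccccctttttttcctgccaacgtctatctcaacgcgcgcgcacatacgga
Id4, chr13:48260866-48261115, plus strand: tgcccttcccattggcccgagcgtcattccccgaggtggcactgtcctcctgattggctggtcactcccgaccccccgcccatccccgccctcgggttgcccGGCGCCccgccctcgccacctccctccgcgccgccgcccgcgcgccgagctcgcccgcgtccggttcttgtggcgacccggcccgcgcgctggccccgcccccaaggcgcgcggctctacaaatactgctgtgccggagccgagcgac
The windows differ in base composition, with 43.2% G and C before Inhba, 68.0% before Inhbb and 75.6% before Id4, against a median of 52.4% over all 32851 promoters of the table. GGCGCC, searched on both strands, occurs once before Id4, from base 148 ahead of the start, and not in the windows of Inhba and Inhbb. It occurs in 9.59% of all promoters and in 12 of the 42 promoters of the 34 members found in the table. Overlapping windows of Ltbp4 hold the same match and are counted separately. Member windows ranged from 42.8% (Bmp5) to 85.6% (Acvr1) G and C. As GGCGCC holds only these bases and base composition was not matched, the shares do not show an excess of the element. The Smad-binding palindrome GTCTAGAC was in 0 member promoters and 0.167% of all. The BMP response element, which joins GGCGCC to a Smad box 5 bases away (GGCGCCNNNNNGTCT or GGCGCCNNNNNAGAC), was in 0 member promoters and in 0.07% and 0.0335% of all, and every match to it also holds GGCGCC.

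Among the secreted antagonists, Fst and Nbl1 rose. Fst encodes follistatin, which binds activins. It measured 5.36, 4.01, 4.47 and 4.89 TPM in polyclonal WT against 29.86, 27.92, 31.44 and 28.6 TPM in WT5, which was 6.29-fold higher (adjusted p = 1.61e-07, limma). Nbl1, a BMP antagonist of the DAN family, rose from 1.73 to 9.47 TPM, or 5.47-fold (adjusted p = 9.01e-07). Fstl3, a relative of follistatin, had means of 2.74 and 2.68 TPM with overlapping libraries, though 58.0% of the 50-base stretches of its longest transcript occur in another gene, Prss57. Noggin (Nog) was listed at 0 in polyclonal WT and lay between 0.06 and 0.24 TPM in WT5 (adjusted p = 0.00105, limma with the pseudocount). That p-value has the same limit as that of Bmp2. Chordin (Chrd) did not exceed 0.04 TPM in any library.

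**Figure D3:**
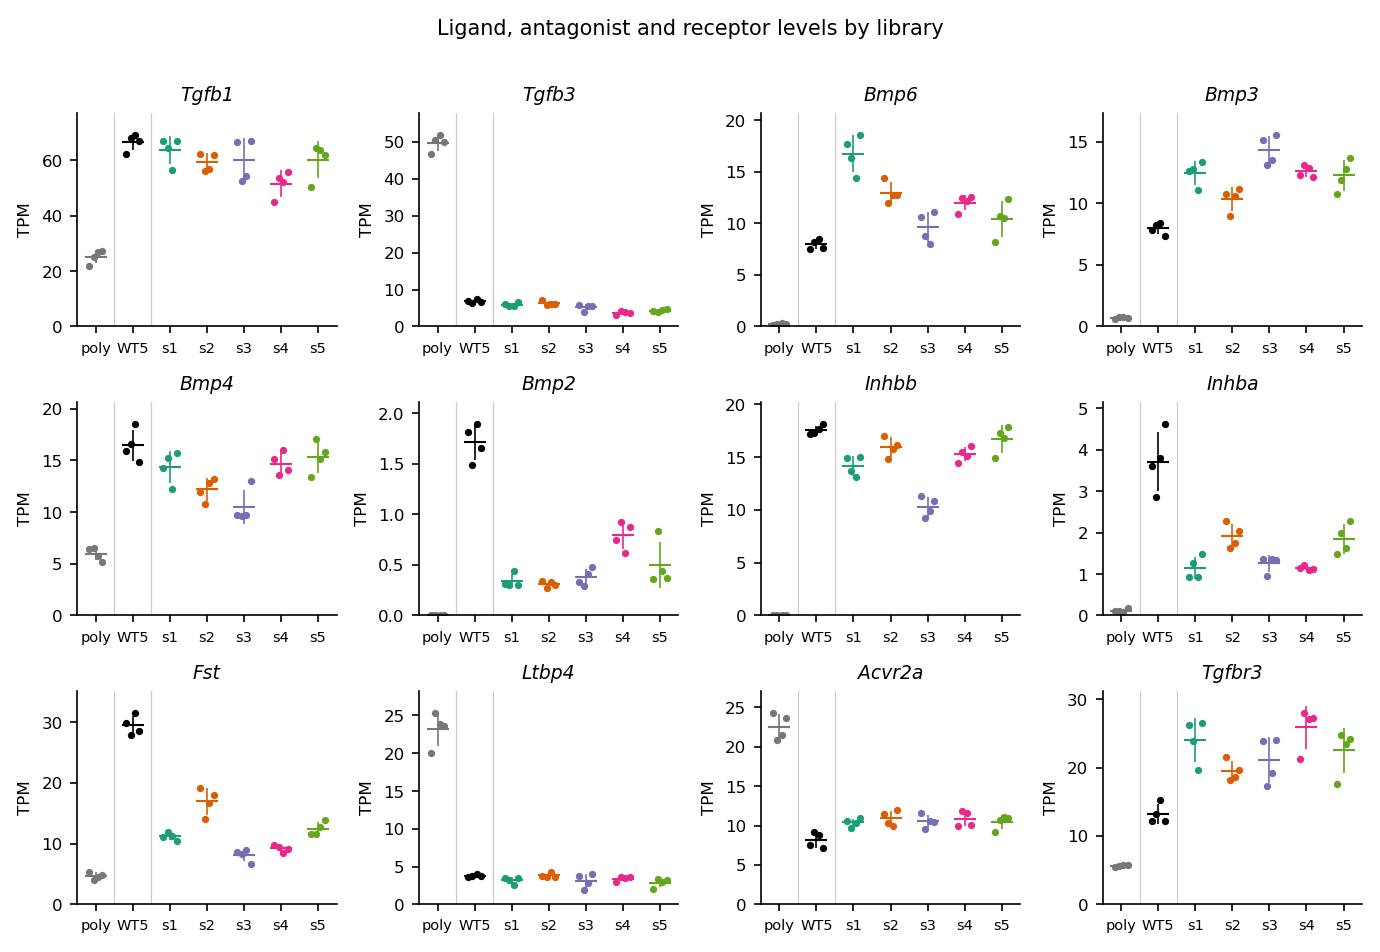
TPM (y axis, from 0) of 12 ligand, antagonist, binding protein and receptor genes in each library of polyclonal WT (poly), WT5 and subclones 1 to 5 (s1 to s5); points are libraries, horizontal marks the mean of 4 and vertical bars the SD. Tgfb3, Ltbp4 and Acvr2a are highest in polyclonal WT, Bmp2, Inhba and Fst are highest in WT5, and Tgfbr3 is highest in the subclones.

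Of the 4 genes for latent TGF-beta binding proteins, Ltbp4 and Ltbp1 fell. For Ltbp4 the libraries gave 20.07, 25.26, 23.84 and 23.58 TPM in polyclonal WT and, in WT5, 3.63, 3.78, 4.01 and 3.75 TPM, 6.11-fold lower (adjusted p = 6.86e-08, limma). Ltbp1 fell from 5.24 to 2.41 TPM, or 2.17-fold (adjusted p = 2.61e-05). Ltbp3, the most abundant of the 4, had means of 116 and 155 TPM, a log2 difference of 0.42 that passed the p threshold (adjusted p = 0.00074) but not 2-fold. Its share of the summed Ltbp transcripts was 80.0 ± 0.845% in polyclonal WT and 96.0 ± 0.204% in WT5 (SD, n = 4). Ltbp2 varied from 0.01 to 0.3 TPM within WT5 alone and did not pass (adjusted p = 0.042).

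Among receptors, a type I and a type II gene for activin or BMP rose and another type II gene fell. Acvr1, a type I receptor for BMPs, measured 3.92, 4.17, 4.56 and 5.44 TPM in polyclonal WT against 13.28, 12.33, 14.14 and 11.98 TPM in WT5 (2.86-fold higher, adjusted p = 6.42e-06, limma). Acvr2b was 2.62-fold higher (0.94 and 2.46 TPM, adjusted p = 3.57e-05). Acvr2a, the other activin type II receptor, measured 24.21, 20.78, 21.42 and 23.65 TPM in polyclonal WT against 7.47, 9.18, 8.85 and 7.16 TPM in WT5 (2.76-fold lower, adjusted p = 4.46e-06). The groups did not overlap for any of these 3 genes, again without a share over all genes to set beside it. Tgfbr3, the co-receptor betaglycan, rose from 5.63 to 13.2 TPM (adjusted p = 3.69e-06), but its log2 difference was 0.93 once each library was centred on its median and it then missed 2-fold. Tgfbr1, Bmpr1a and Bmpr2 had log2 differences of 0.05, 0.02 and 0.16 (adjusted p from 0.296 to 0.832). Acvr1b and Tgfbr2 passed the p threshold with log2 differences of 0.72 and 0.73, short of 2-fold. Bambi, a decoy receptor without a kinase domain, stayed at or below 0.12 TPM. Of the 50-base stretches of Acvr2a, 7.04% occur in other transcripts.

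Of the Smads, Smad2 and the inhibitory Smad7 passed the 2-fold rule. Smad2 measured 26.23, 25.95, 28.26 and 24.49 TPM in polyclonal WT against 55.98, 63.25, 66.64 and 68.38 TPM in WT5 (2.42-fold higher, adjusted p = 2.46e-06, limma), with a log2 difference of 0.98 after median centring, just short of 2-fold. Smad3, its partner after TGF-beta or activin, had means of 37.8 and 33.1 TPM (adjusted p = 0.0283). Smad7, itself a target of the pathway, measured 10.15, 8.47, 8.69 and 9.24 TPM against 24.34, 20.79, 25.72 and 22.38 TPM (2.55-fold higher, adjusted p = 3.47e-06). Smad4, the common partner and the most abundant Smad transcript, had means of 52.0 and 85.4 TPM, a log2 difference of 0.72. Smad6 differed by 0.21 on the log2 scale, which is below the shift of all genes.

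Of the Id genes, Id3 alone passed the 2-fold rule here. It measured 14.73, 18.38, 14.51 and 17.61 TPM in polyclonal WT against 46.99, 41.63, 47.58 and 41.98 TPM in WT5 (2.73-fold higher, adjusted p = 4.26e-06, limma). Id1 had 80.04, 90.33, 88.05 and 86.58 TPM against 133.31, 135.86, 140.47 and 144.24 TPM, a log2 difference of 0.68 (adjusted p = 8.72e-06). Id2 and Id4 overlapped between the lines, with log2 differences of 0.09 (adjusted p = 0.19) and 0.25 (adjusted p = 0.0666).

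The other genes of the pathway comprised 87 symbols in 4 lists, of which 86 were found and 50 could be tested. In WT5, 22 were higher and 2 lower than in polyclonal WT by the 2-fold rule, beside 17.0% and 8.55% of all genes, and 6 passed the z-score rule, beside 5.43%. Of 15 TGF-beta target genes tested, 10 were higher (17.0% of all genes) and 1 was lower (8.55% of all genes), with a median log2 difference of 2.26 beside 0.24 for all genes. The counts of the smaller lists below read against the same shares. Pmepa1, a feedback inhibitor, had means of 4.32 TPM in polyclonal WT against 51.6 TPM in WT5, and the mesenchymal filament gene Vim had 1.67 and 16.8 TPM. Cdh2, which encodes N-cadherin, differed by 3.30 and the repressor Zeb1 by 3.33 on the log2 scale. Of 8 BMP target genes tested, 4 were higher and 1 was lower: Msx1 differed by 5.43, Runx2 by 3.92 and Gata3, which also marks the collecting duct, by -6.65. Of 2 other ligand genes tested, 1 was higher: Gdf15, a stress-induced ligand, had means of 4.78 and 329 TPM. Among 25 other receptors and regulators, 7 were higher and 0 lower, among them Eng (endoglin) by 2.36, the BMP modulator Kcp by 2.16, Fstl1 by 2.09 and the ubiquitin ligase gene Smurf1 by 1.57. Adjusted p (limma) lay between 6.32e-09 and 0.00179 for the genes named.

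Each subclone was compared with WT5 to ask how much cells of 1 clone differ after another round of single-cell sorting. Here 39 members could be tested. By the z-score rule, about 7.94-fold here, 0 members were called in every subclone with limma and with the unequal-variance test, against 0.152%, 0.144%, 0.173%, 0.202% and 0.173% of all genes in subclones 1 to 5. Without the threshold on size, 20, 27, 23, 24 and 21 of the 39 members had an unadjusted p below 0.05, beside 51.0%, 51.5%, 46.2%, 59.0% and 49.1% of all genes. By the 2-fold rule, 4, 5, 6, 5 and 4 members passed in subclones 1 to 5, against 3.17%, 2.69%, 3.61%, 5.14% and 3.45% of all genes. Of these 24 calls 23 were lower in the subclone, and the matching shares of all genes called lower were 1.75%, 1.58%, 1.90%, 2.27% and 1.98%. Because the same WT5 libraries stand on 1 side of all 5 comparisons, these are not independent. With 1 TPM added before taking logs, 15 calls were made in place of 24. The median size of the log2 difference lay between 0.21 and 0.36 over the members and between 0.20 and 0.25 over all genes.

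**Figure D4:**
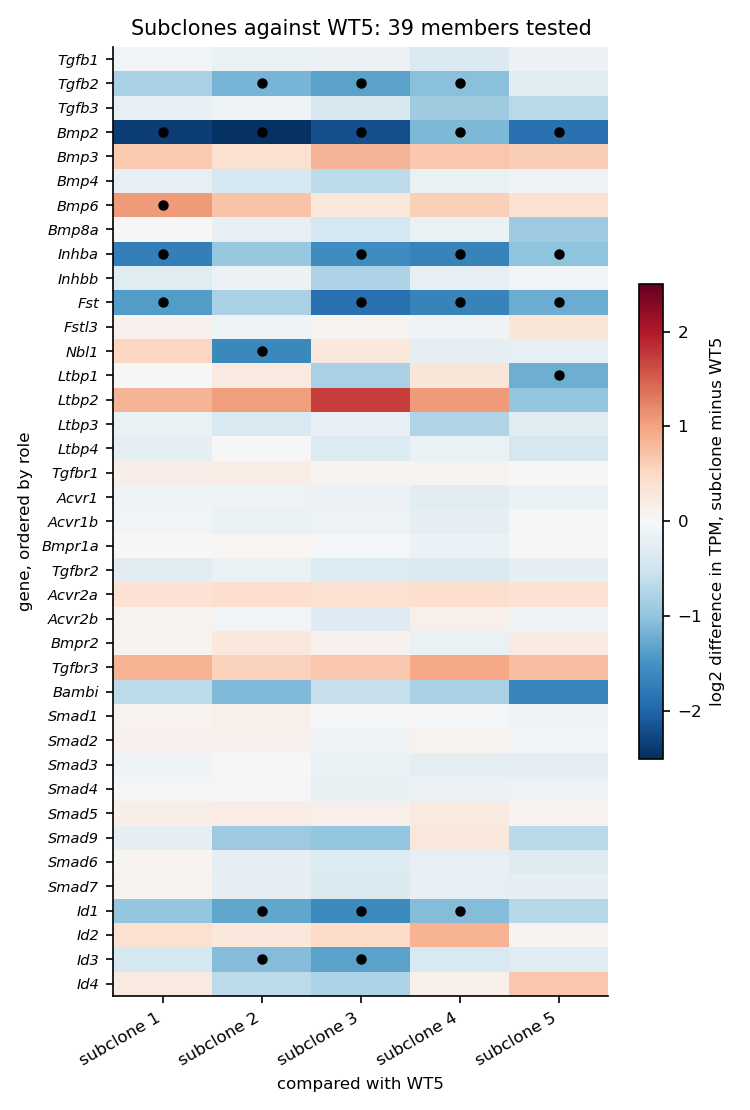
Log2 difference in TPM between each subclone and WT5 (colour, subclone minus WT5) for the 39 members tested in rows and the 5 subclones in columns, with a dot where the 2-fold rule was passed. Bmp2 carries a dot in all 5 columns and Fst and Inhba in 4 each, whereas the rows of receptors and Smads hold no dot.

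Bmp2 passed the rule in all 5 subclones, with means of 0.338, 0.310, 0.378, 0.793 and 0.503 TPM in subclones 1 to 5 beside 1.72 TPM in WT5 and adjusted p from 2.23e-05 to 0.00173 (limma). It was 5.53-fold lower in subclone 2 and 2.16-fold lower in subclone 4. With 1 TPM added before taking logs the calls in subclones 3, 4 and 5 were lost (log2 differences -0.98, -0.60 and -0.86), and that in subclone 5 was also lost with the unequal-variance test (adjusted p = 0.0351) and with the replicate block (adjusted p = 0.0126). Inhba measured 0.94, 1.26, 0.92 and 1.48 TPM in subclone 1 and had means of 1.93, 1.26, 1.15 and 1.84 TPM in subclones 2 to 5, below the 3.71 TPM of WT5. It passed in subclones 1, 3, 4 and 5, though the call in subclone 5 (log2 difference -1.01, adjusted p = 0.00474) was lost without WT5 replicate 1, 3 or 4 and without subclone 5 replicate 1, 2 or 3 (log2 difference from -1.05 to -0.90, adjusted p from 0.00905 to 0.0167). That call was also lost with the unequal-variance test (adjusted p = 0.0222) and with the replicate block (adjusted p = 0.0116, limma). Either pseudocount, median centring or rescaled TPM lost it too, at log2 differences from -0.97 to -0.72. Fst measured 8.61, 8.36, 8.97 and 6.63 TPM in subclone 3, against 27.92 to 31.44 TPM in WT5, a log2 difference of -1.86 ± 0.10 (SE; adjusted p = 3.57e-05, limma). It passed in subclones 1, 3, 4 and 5 and had a log2 difference of -0.80 in subclone 2. Tgfb2 passed in subclones 2, 3 and 4, with means of 1.02, 0.895 and 1.10 TPM beside 2.25 TPM in WT5. All 3 calls were lost with 1 TPM added (log2 differences from -0.78 to -0.63), and that in subclone 2 with the unequal-variance test (adjusted p = 0.0272). In subclone 4 its log2 difference was -1.04, and -0.95 without subclone 4 replicate 1 or with each library centred on its median.

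Ligands and receptors that were high in WT5 were not uniformly lower in the subclones. Bmp6 measured 17.65, 16.35, 14.4 and 18.51 TPM in subclone 1, 2.10-fold higher than in WT5 (adjusted p = 0.000147, limma) but with a log2 difference of 0.98 once 1 TPM was added, and had means between 9.65 and 13.0 TPM in the other subclones. Bmp3 had means between 10.4 and 14.3 TPM, above 7.97 TPM in WT5, with log2 differences from 0.38 to 0.84 and the highest adjusted p at 0.00828. Inhbb was below WT5 in all 5 subclones, with means between 10.3 and 16.7 TPM. Its log2 differences from -0.77 to -0.07 did not pass 2-fold in any subclone. Tgfbr3 had means between 19.5 and 25.9 TPM, above 13.2 TPM in WT5, with log2 differences from 0.57 to 0.97 and no overlap of libraries in any of the 5 comparisons. Tgfb1 was likewise below WT5 in all 5, with means between 51.6 and 63.7 TPM and log2 differences from -0.37 to -0.07. It differed at an adjusted p of 0.00419 (limma) in subclone 4.

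Id1, the most abundant Id transcript in WT5, was lower in every subclone. Its libraries spanned 42.96 to 89.38 TPM over all subclones and 133.31 to 144.24 TPM in WT5, and it passed 2-fold in subclones 2, 3 and 4. The log2 difference was largest in subclone 3, at -1.59 ± 0.06 (SE; adjusted p = 1.48e-05, limma), and it was -1.08 in subclone 4, where it became -0.99 after median centring. Id3 passed in subclones 2 and 3, with 21.64, 20.13, 19.51 and 22.25 TPM in subclone 2 and 14.75, 17.89, 18.58 and 19.87 TPM in subclone 3 beside a mean of 44.5 TPM in WT5. In subclone 2 its log2 difference of -1.09 became -0.98 when TPM was rescaled without predicted, pseudogene and mitochondrial genes. Id2 differed in the other direction and had its highest level in subclone 4, at 128.79, 131.24, 130.08 and 121.57 TPM against 66.28 to 74.18 TPM in WT5, a log2 difference of 0.87 (adjusted p = 1.15e-05). As a share of the summed Id transcripts, Id1 was 53.7 ± 1.76% in WT5 and 28.0 ± 1.42% in subclone 3, and Id2 was 27.2 ± 1.01% and 59.5 ± 2.21% (SD, n = 4).

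Of the 50 wider pathway genes tested, counts of 4, 5, 9, 7 and 6 in subclones 1 to 5 passed the 2-fold rule, all with lower levels than in WT5, beside the 1.75%, 1.58%, 1.90%, 2.27% and 1.98% of all genes called lower. Vim passed in all 5, with means between 2.47 and 6.14 TPM beside 16.8 TPM in WT5. Msx1 passed in subclones 1, 4 and 5, at 0.535, 1.02 and 1.39 TPM beside 3.25 TPM. Gata2, another BMP target, passed both rules in subclones 3, 4 and 5, at 0.0825, 0.0325 and 0.0875 TPM beside 0.948 TPM in WT5. Fstl1 passed in subclone 2 only, at 2.05 TPM beside 11.9 TPM.

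The subclones were then compared among themselves, within 1 table and 1 sequencing design. A moderated F-test over the 20 subclone libraries, with the means of the highest and lowest subclone more than 2-fold apart, called 7 of 39 members and 5.40% of all genes. Past the p threshold alone were 15 members, against 17.8% of all genes tested. The median log2 range was 0.47 over the members and 0.29 over all genes. The 7 were Tgfb2, Bmp2, Fst, Nbl1, Ltbp1, Id3 and Id4. The call of Fst (log2 range 1.06) was lost without subclone 2 replicate 1 or subclone 3 replicate 4, at 1.00 and 0.96, and that of Id3 (1.02) without subclone 3 replicate 1, at 0.93. With a pseudocount of 1 TPM, 2 members were called, Nbl1 and Id4. Keeping genes above 0 somewhere, with the pseudocount of 0.1 TPM, 8 members were called, against 3.74% of all genes, with Bmp7 and Inha added and Tgfb2 lost. All members but Bmp5 and Bmpr1b were tested under this setting.

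**Figure D5:**
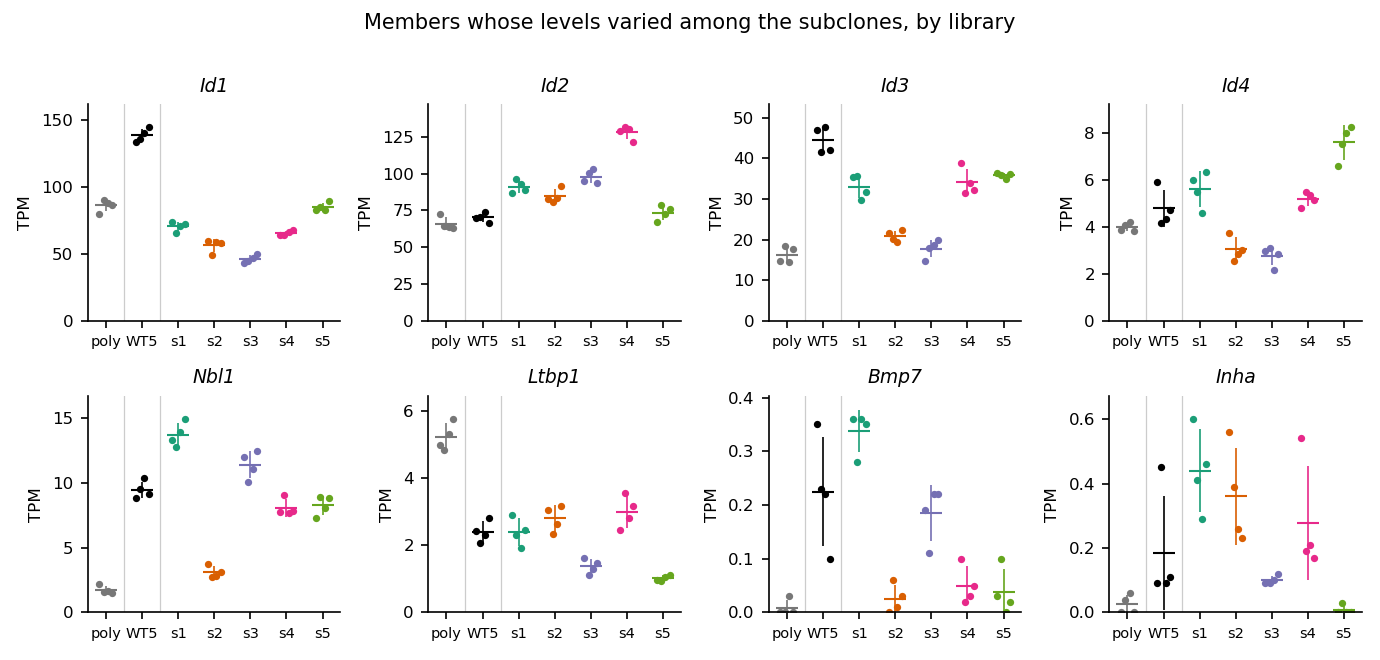
TPM (y axis, from 0) of the 4 Id genes, Nbl1, Ltbp1, Bmp7 and Inha in each library of polyclonal WT (poly), WT5 and subclones 1 to 5 (s1 to s5); points are libraries, horizontal marks the mean of 4 and vertical bars the SD, cut at 0. Nbl1 is lowest of the subclones in s2, Ltbp1 in s5 and the Id1, Id3 and Id4 means in s3, while Id2 is highest in s4 and Id4 in s5.

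Of the 7 members called on log2(TPM), Nbl1 had the widest range. It measured 3.77, 2.71, 2.84 and 3.12 TPM in subclone 2 and 13.3, 12.78, 13.97 and 14.95 TPM in subclone 1, a log2 range of 2.15 (adjusted p = 4.8e-10, limma F-test). The remaining means, in subclones 3, 4 and 5, were 11.4, 8.09 and 8.28 TPM. Subclone 2 lay below each of the other four, with adjusted p of at most 5e-08 in the pairwise contrasts, whereas subclones 4 and 5 were not told apart (adjusted p = 0.865). Ltbp1 measured 0.97, 0.95, 1.05 and 1.13 TPM in subclone 5 and 1.61, 1.13, 1.31 and 1.48 TPM in subclone 3. In subclones 1, 2 and 4 it lay between 1.91 and 3.55 TPM, with no overlap with those subclones. Against WT5, Nbl1 passed the 2-fold rule in subclone 2 (log2 difference -1.62 ± 0.11, SE; adjusted p = 0.000109, limma) and Ltbp1 in subclone 5 (-1.23 ± 0.11; adjusted p = 0.000289), the latter not with 1 TPM added (-0.75). The log2 range of Ltbp1 among the subclones was 1.54 (adjusted p = 5e-07, limma F-test), and subclones 3 and 5 did not pass in their own contrast (adjusted p = 0.0777).

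Id4 measured 6.58, 7.53, 8 and 8.22 TPM in subclone 5 and 2.97, 3.11, 2.18 and 2.84 TPM in subclone 3, a log2 range of 1.46 (adjusted p = 4.17e-07, limma F-test). Subclone 2, at a mean of 3.04 TPM, was not told apart from subclone 3 (adjusted p = 0.72). For Id3 the means of subclones 1, 4 and 5 lay between 33.1 and 35.8 TPM, and those of subclones 2 and 3 were 20.9 and 17.8 TPM, with no overlap between both sets of libraries. For Id1 and Id2 the ranges were 0.88 and 0.80 on the log2 scale, with adjusted p of 1.27e-07 and 2.69e-07 but less than 2-fold.

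Bmp7 and Inha were low throughout, yet their libraries separated some subclones. Bmp7 measured 0.36, 0.28, 0.36 and 0.35 TPM in subclone 1 and 0.19, 0.11, 0.22 and 0.22 TPM in subclone 3, and did not exceed 0.1 TPM in subclones 2, 4 and 5 (adjusted p = 9.75e-06, limma F-test with the pseudocount). Inha measured 0, 0.03, 0 and 0 TPM in subclone 5 and had means between 0.1 and 0.44 TPM in the others (adjusted p = 1.35e-05). At such levels the tables give no read counts, so the counting error of these values is unknown.

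Receptors and Smads gave no call among the subclones. Of 18 receptor, co-receptor and Smad genes tested, 0 passed the adjusted p threshold of 0.01 in the F-test (lowest adjusted p 0.0287, limma), beside the 17.8% of all genes that passed it. Among those with narrow ranges, Acvr2a had means of 10.4 to 10.9 TPM, Smad4 of 75.0 to 83.6 TPM and Tgfbr1 of 13.9 to 15.7 TPM. The widest log2 ranges were 1.26 for Smad9 and 1.06 for Bambi, which did not exceed 0.14 and 0.09 TPM in the subclones. Next came Acvr2b and Smad7, at 0.44 each, and Bmpr2 at 0.43.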

How the data were processed

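RNA-seq of mIMCD-3 cells was analysed from 2 deposited tables of TPM, made by the authors with RSEM 1.3.1 from reads aligned with STAR 2.7.3a to GRCm38 with Ensembl release 81, after base calling with CASAVA 1.8. TPM was given to 2 decimals without read counts, so depth is unknown and no counting interval was computed. Libraries were grouped by their labels into 7 groups of 4. The members and gene lists were chosen with earlier results of these data known.

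For each comparison, genes above 0 TPM in all its libraries were tested with limma 3.58.1 (R 4.3.3) and p-values were adjusted by Benjamini-Hochberg over all of them. The z-score rule used log2(TPM) z-scored within each library, at adjusted p below 0.01 and a difference above 1. The 2-fold rule used log2(TPM) at the same p. Members with a value of 0 were tested after adding 0.1 TPM. The scripts were tested on simulated data. P-values come from limma except where the unequal-variance test is named, and each is two-sided or, for the F-test, over all subclones.

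Members were named if they passed a rule in any comparison, had the highest mean of their role, or were listed at 0 in any library. From the wider lists, genes past the z-score rule in WT5 and at most 4 per list by size of difference were named. Members outside this rule (Bmp8a, Fstl3, Ltbp2, Tgfbr1, Bmpr2, Acvr1b, Smad1, Smad3, Smad6 and Smad9) and the cell markers were named after their values were seen. Alternatives covered the test, pseudocount, low-value filter, thresholds, scaling, the libraries in the fit, a replicate block and each library left out. Exons and transcript sequences came from GENCODE M21, and promoters from RefSeq.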

Additional observations from a re-analysis of the deposited data

Results flagged for a closer look

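In 13 of 233 groups of 4 libraries with a mean of at least 1 TPM, a single library lay apart from the other three by Dixon's criterion. Chance alone flags about 5% of such groups, or 11.7 here. Among ligands and antagonists these were Bmp4 in subclone 3 (replicate 4 at 12.99 TPM, the others 9.66 to 9.68 TPM), Inhba in subclone 3 (replicate 2 at 0.95 TPM, the others 1.34 to 1.37 TPM) and Fstl3 in subclone 5 (replicate 4 at 3.82 TPM, the others 3.09 to 3.2 TPM). Nbl1 was flagged in polyclonal WT (replicate 1 at 2.2 TPM, the others 1.54 to 1.62 TPM) and in subclone 4 (replicate 2 at 9.1 TPM, the others 7.66 to 7.85 TPM).

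Among receptors and Smads, Tgfbr3 in subclone 4 had replicate 1 at 21.26 TPM, below 27.11 to 27.91 TPM. In polyclonal WT, Smad1 had replicate 1 at 16.8 TPM, above 15.06 to 15.32 TPM. Smad2 had replicate 2 of subclone 4 at 71.1 TPM, above 65.56 to 65.81 TPM, and replicate 1 of subclone 5 at 51.09 TPM, below 63.92 to 65.09 TPM. Smad3 had replicate 1 of subclone 4 at 23.65 TPM, below 29.03 to 29.86 TPM, and replicate 1 of subclone 5 at 21.83 TPM, below 30.14 to 31.77 TPM. Of the Id genes, Id1 in subclone 2 had replicate 2 at 49.34 TPM, below 58.25 to 59.3 TPM, and Id2 in polyclonal WT had replicate 1 at 72.31 TPM, above 63.21 to 64.36 TPM.

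The subclones differed from each other by the moderated F-test of limma in 7 members. The log2 ranges between the highest and lowest subclone mean were 1.06 for Tgfb2, 1.34 for Bmp2, 1.06 for Fst, 2.15 for Nbl1, 1.54 for Ltbp1, 1.02 for Id3 and 1.46 for Id4.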

How the results depend on the processing

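The z-score count for WT5 against polyclonal WT was 3 members, 6 with a mean of at least 1 TPM, 24 without a threshold on the difference and 5 with TPM rescaled without predicted, pseudogene and mitochondrial genes. With a pseudocount of 1 it was again 3 members, of which only Bmp6 was called under both settings. The 2-fold count was 17 and lay between 15 and 25 under every alternative run. Over the subclones, the 0 z-score calls became 76 without a threshold on the difference. Their 24 calls past 2-fold became 15 with a pseudocount of 1 and 65 without the threshold, and the 7 members that differed among the subclones became 2 and 15. Leaving out 1 library at a time gave 3 to 4, 17 to 18, 0 to 0, 23 to 25 and 6 to 7 for these counts in the same order. With the replicate number as a block they were 3, 17, 0, 23 and 7, where Bmp2 and Inhba in subclone 5 were lost and Bambi in subclone 5 was gained. Same-numbered libraries of WT5 and polyclonal WT did not deviate together (correlations from -0.011 to 0.014), and in no pair of groups did all 4 libraries correlate best with their own number, so the numbers were not taken as pairing. Single genes were followed only for the 51 differences called under the main settings, so calls gained in other genes are not counted here. Of 1394 alternative values for them, 1345 kept their direction and side of the threshold, 49 kept the direction only, and 0 reversed. Part of this was fixed in advance, since a looser p threshold or no threshold on the difference cannot lose a call. Except where shown above, the cause of a change was not tested. Without read counts, the precision of values near 0.01 TPM is unknown.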

Other observations

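Markers of other tubule segments also varied between groups. Of the thick ascending limb genes, Slc12a1 did not exceed 0.01 TPM, and Umod had means of 0.0675 TPM in polyclonal WT, 3.38 TPM in WT5 and 2.17, 2.12, 2.73, 4.64 and 11.6 TPM in subclones 1 to 5. The 4 proximal tubule markers summed to between 4.28 and 11.46 TPM over all libraries. Of the 46 members, 13 shared at least 1% of the 50-base stretches of their longest transcript with another annotated gene, from 1.51% for Grem1 to 58.0% for Fstl3.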
